A study of Mus musculus with 4 samples.

Results

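Ephrins are the membrane-bound ligands of the Eph receptor tyrosine kinases, and 7 of their genes, Efna1, Efna2, Efna3, Efna4, Efna5, Efnb1 and Efnb2, were examined here out of 21887 protein-coding genes of the mouse annotation. The gene set was selected on measured values of these same libraries, namely the presence, width, fold enrichment and rank of a peak inside Efna5, so everything said of that peak is a description and carries no test. Accessible chromatin had been profiled by Omni-ATAC, in which a transposase cuts open DNA and leaves sequencing adapters behind, in 10T1/2 cells, a line of mouse embryonic fibroblasts. The study compared 2 genotypes, each with 2 libraries. The knockout libraries came from cells carrying a CRISPR-Cas9 disruption of Ranbp2, a nuclear pore protein, and these cells were a single clone grown from 1 sorted cell. The wild-type libraries came from 10T1/2 cells with intact Ranbp2, and no treatment or time point distinguished the genotypes beyond the edit. All cells had been kept in an antibiotic against mycoplasma and were moved to medium without it before experiments. The labels do not say whether libraries of 1 genotype came from separate cultures, so the spread between them may be technical, and with a single knockout clone an effect of the clone and an effect of the genotype cannot be told apart.

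Ephrins of the A type are held at the outer face of the membrane by a lipid anchor, whereas ephrins of the B type span the membrane and carry a cytoplasmic tail that can itself signal. Ligand and receptor meet where cells touch, and signals can run into both cells. The system is best known for contact repulsion, for axon guidance, for boundaries between tissues and for the arrangement of arteries and veins, and in mesenchymal cells it takes part in skeletal and craniofacial patterning.

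The deposited peak lists held 13877 and 24292 peaks in knockout replicates 1 and 2, and 33721 and 18511 peaks in wild-type replicates 1 and 2. The files give no read counts, so sequencing depth is unknown, and a region without a peak may lie just below the limit of a list. Each peak carries the fold enrichment of its summit over the local background of its own library, as the authors' caller gave it. For each list, peaks were also ranked by −log10 q and given a percentile, with 100 for the strongest. A longer list reaches further down into weak peaks, so percentiles from lists of unequal length are not on 1 scale, and values with every list reduced to its 13877 strongest peaks, called equal lists, are given beside the main results. Of 14 fibroblast marker genes, 5 and 6 had a peak within 1 kb of an end of the gene in the knockout libraries and 11 and 8 in the wild-type libraries. Those in all 4 libraries were Col1a2, Fn1, Vim, Lox and Tcf4, while Prrx1, Pdgfra and Meox1 had none. None of 6 epithelial and 5 endothelial markers had such a peak in any library, and of 6 immune and 4 neural markers 1 each had one, in wild-type replicate 1 alone. The fibroblast counts were lower in both knockout libraries than in either wild-type library, and their part in the results was not tested. The share of all genes by this measure is not given. For a peak within 1 kb of an annotated transcription start, all genes gave 29.8% and 38.8% in the knockout libraries. In the wild-type libraries they gave 45.2% and 37.2%.

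Of the 7 ligand genes 3 had a peak with its summit within 1 kb of an annotated transcription start, and the promoters of these 3 are shown with that of Efna5, which has none, because they are the parts of these genes that the start peaks cover. Each is a RefSeq window (GRCm38.p6, the coordinates of mm10) of 250 bases before to 50 bases after the start, written 5′ to 3′ on the gene's strand. The Efnb1 window is chrX:99135811-99136110 on the plus strand. The others lie on the minus strand, that of Efnb2 at chr8:8661193-8661492, that of the internal start of Efna1 at chr3:89279596-89279895 and that of Efna5 at chr17:62881268-62881567. Capitals mark the GC box (GGGCGG, or CCGCCC on the other strand) and the CCAAT box (CCAAT, or ATTGG on the other strand), letters bound by Sp and Klf factors and by NF-Y in many promoters.
Efnb1: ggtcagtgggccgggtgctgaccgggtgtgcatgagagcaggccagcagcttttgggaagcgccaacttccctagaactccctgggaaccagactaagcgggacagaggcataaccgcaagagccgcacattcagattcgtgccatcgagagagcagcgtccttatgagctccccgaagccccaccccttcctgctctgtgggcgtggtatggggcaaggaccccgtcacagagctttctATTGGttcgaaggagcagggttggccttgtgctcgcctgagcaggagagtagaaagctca
Efnb2: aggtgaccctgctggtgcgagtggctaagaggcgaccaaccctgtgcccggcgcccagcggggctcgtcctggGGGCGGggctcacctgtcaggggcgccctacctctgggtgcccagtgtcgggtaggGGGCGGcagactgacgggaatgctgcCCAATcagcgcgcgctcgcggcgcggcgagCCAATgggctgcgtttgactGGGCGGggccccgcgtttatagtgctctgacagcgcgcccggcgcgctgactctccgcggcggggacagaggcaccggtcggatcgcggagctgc
Efna1: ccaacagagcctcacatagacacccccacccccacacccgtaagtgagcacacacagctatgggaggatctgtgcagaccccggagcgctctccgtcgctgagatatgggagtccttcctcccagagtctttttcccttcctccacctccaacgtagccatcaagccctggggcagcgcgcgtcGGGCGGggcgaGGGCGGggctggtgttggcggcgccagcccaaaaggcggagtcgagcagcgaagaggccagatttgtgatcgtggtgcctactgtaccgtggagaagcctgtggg
Efna5: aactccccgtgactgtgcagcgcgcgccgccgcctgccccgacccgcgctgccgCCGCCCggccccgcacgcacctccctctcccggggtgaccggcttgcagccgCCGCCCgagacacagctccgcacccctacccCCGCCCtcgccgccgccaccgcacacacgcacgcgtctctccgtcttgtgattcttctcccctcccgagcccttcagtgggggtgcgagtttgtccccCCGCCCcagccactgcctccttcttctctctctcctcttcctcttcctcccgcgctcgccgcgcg

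The Efnb1 window had 0 GC boxes and 1 CCAAT box, the Efnb2 window had 3 GC boxes and 2 CCAAT boxes, the internal Efna1 window had 2 GC boxes and 0 CCAAT boxes, and the Efna5 window had 4 GC boxes and 0 CCAAT boxes. The other annotated windows, the outer start of Efna1 and the starts of Efna2, Efna3 and Efna4, held 0 to 3 GC boxes and 0 or 1 CCAAT box each, so windows with and without a start peak overlapped in both counts. TATAAA was found in the Efnb2 window alone and the AP-1 letters TGANTCA in none, searched on both strands, and no match overlapped another motif. Of all 32851 promoter windows in the table, 35.7% held a GC box, 37.4% a CCAAT box, 13.6% TATAAA and 7.81% TGANTCA. The Efna5 window was also the richest in CpG of the 4, with 38 CpG against 35 in Efnb2, 20 in Efna1 and 14 in Efnb1, where the median over all windows was 7. A match of letters is a description of the window and shows no bound factor.

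Efnb1, which encodes ephrin-B1, a transmembrane ligand needed for skull and face patterning, was the only ligand gene with a start peak in all 4 libraries. Its peak had a fold enrichment of 6.04 and 9.09 in the knockout libraries, against 10.6 and 10.8 in the wild-type libraries. The summits lay between 36 bases upstream and 14 bases downstream of the start, so the peak covers the end of the printed window. The widths were 130 and 247 bp in the knockout libraries and 242 and 166 bp in the wild-type libraries. Its percentile was 24.6 and 68.0 in the knockout libraries and 72.0 and 64.9 in the wild-type libraries, so the genotypes overlapped and knockout replicate 1 stood below the other 3. Over all genes with a start in the table, 28.8% had a start peak in all 4 libraries. Over 4 libraries, the percentiles of the start peaks of Zfp956 and Serinc5 were the most like those of Efnb1 among 5031 other genes, at a Euclidean distance of 4.804 and 4.824 points.

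Efnb2, which encodes ephrin-B2, a transmembrane ligand that marks arteries, had a start peak in knockout replicate 2 and in both wild-type libraries. The fold enrichment was 4.92 in knockout replicate 2, against 8.37 and 7.29 in the wild-type libraries. These were weak peaks, at percentile 14.5 in knockout replicate 2 and 48.99 and 24.1 in the wild-type libraries. The summits lay 24 bases upstream of the start in knockout replicate 2 and 63 and 125 bases upstream in the wild-type libraries, all inside the printed window. The only region of the Efnb2 window that was present in all 4 libraries lay 14 bases from an end of the neighbouring gene Arglu1, with folds of 6.79 and 6.86 in the knockout libraries and 10.98 and 7.48 in the wild-type libraries. With equal lists the Efnb2 start peak was in 0 lists, that of Efna1 in 2 and that of Efnb1 in 4.

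Efna1, which encodes ephrin-A1, a lipid-anchored ligand known from endothelial cells, has 2 annotated starts, and the peak lay at the inner one. It was present in knockout replicate 2 with a fold enrichment of 7.996, against 7.87 and 9.03 in wild-type replicates 1 and 2. The percentile was 60.9 in knockout replicate 2 and 54.5 and 50.4 in the wild-type libraries, and the single knockout value was the highest of the 3. The summits lay 23 to 27 bases downstream of the inner start in these 3 libraries, and no list had a peak within 1 kb of the outer start at position 89280951. Efnb2 and Efna1 both lacked a peak in knockout replicate 1, the shortest list, and 6.31% of all genes had a start peak in every list but that one.

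Efna2, Efna3, Efna4 and Efna5, which all encode lipid-anchored ligands, had no start peak in any library. The nearest peak to the Efna2 start lay 1871 bp upstream in knockout replicate 2 and 1880 bp upstream in wild-type replicate 1, with a fold of 4.20 and 4.36. That nearest to the Efna4 start lay 1526 bp upstream, at the end of the neighbouring gene Adam15, and was present in knockout replicate 2 alone (fold 4.65). That nearest to a start of Efna3 lay 4731 bp downstream, inside the gene, in wild-type replicate 1 alone (fold 6.38). Upstream of Efna5 a peak lay 1842 bp from the start in knockout replicate 2 (fold 8.15) and 1786 and 1797 bp from it in wild-type replicates 1 and 2 (fold 12.3 and 10.5). Of all 17492 genes with a start in the table, 45.9% had a start peak in at least 1 library, so 3 of 7 ligand genes was near the background. By library, 1 and 3 of the 7 had a start peak in the knockout libraries, where all genes gave 29.8% and 38.8%, and 3 and 3 in the wild-type libraries, where all genes gave 45.2% and 37.2%.

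**Figure D1:**
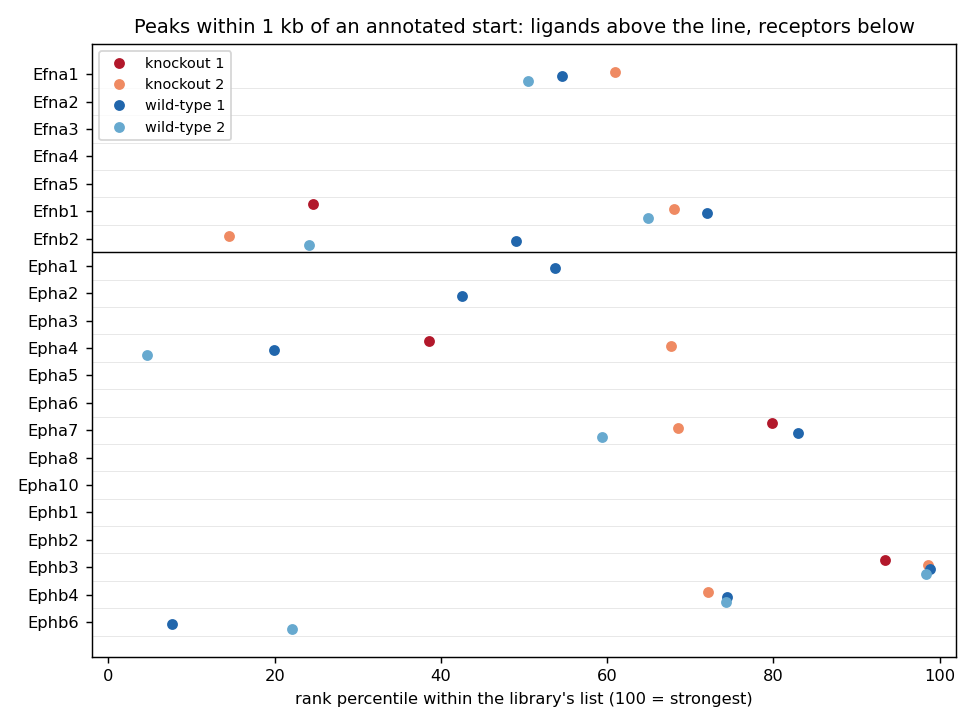
Rank percentile, within each library's own list, of the strongest peak with its summit within 1 kb of an annotated start, for the 7 ligand genes (above the line) and 14 Eph receptor genes (below it); each point is 1 library, red and orange for knockout replicates 1 and 2 and dark and light blue for wild-type replicates 1 and 2, and a missing point is a library with no such peak. Among ligands Efnb1 has 4 points and Efna1 and Efnb2 have 3 each, and the strongest start peaks belong to the receptor Ephb3, from 93.4 to 98.8.

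Efna5 encodes ephrin-A5, a repulsive ligand of axon guidance, and is the longest of the 7 genes, spanning 278.4 kb at chr17:62602957-62881317 on the minus strand (gene 13640). Its window, like that of every gene here, is the gene span plus 100 kb on each side, and held no other protein-coding gene. The window had 0 and 5 peaks in the knockout libraries and 7 and 2 peaks in the wild-type libraries, joined into 10 merged regions, and no region was present in all 4 libraries. Most were weak peaks of a single list. Apart from 1 site and the upstream peak already given, the peaks of the window had folds of 4.49 to 5.47 in knockout replicate 2 and of 4.71 to 7.07 in wild-type replicate 1. The only region of these that was shared between genotypes lay 212826 bp downstream of the start in knockout replicate 2 (fold 5.43, percentile 21.4) and 212890 bp in wild-type replicate 1 (fold 4.71, percentile 3.13).

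The exception was a narrow, strong site inside Efna5 at chr17:62737542-62737639, 98 bp wide, which was called in each wild-type list and in no knockout list. Its fold enrichment was 42.4 in wild-type replicate 1 and 45.7 in wild-type replicate 2, which is 5.50 and 5.13 times the median fold of those lists. By −log10 q it ranked 107 of 33721 peaks and 87 of 18511 peaks, at percentiles 99.7 and 99.5, and by fold it ranked 37 and 32. Both summits lay at nearly the same base, 62737589 and 62737590, 143.7 kb downstream of the start and 134.6 kb from the other end of the gene. Exon positions were not used here, so whether the site is exonic or intronic is not given.

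In the wild-type lists the site was strong at a very small width, which are values it was selected on. Its peaks were 95 and 97 bp wide, where the narrowest peaks of the wild-type lists measured 94 and 97 bp and the median widths were 181 and 176 bp. In wild-type replicate 1, 1.68% of peaks were as narrow as this one, and in wild-type replicate 2 0.80% were. In neither list did any peak of that width or less have a higher fold, though this limit is the site's own width. In wild-type replicate 1 another peak, 94 bp wide, had a fold of 39.1, and a peak of 113 bp had 46.7. The Efna5 site was the only region at percentile 99 or above in both wild-type libraries that had no knockout peak. Of 164 regions at that rank, the other 163 had a peak in all 4 libraries. Over all 39137 merged regions, 6.52% were present in both wild-type lists and in neither knockout list. Those 2552 regions had a median percentile of 34.3, averaged over the wild-type libraries, and the region next below the Efna5 site reached 89.9. The converse, a region in both knockout lists and in neither wild-type list, was found for 0 regions at percentile 99 or above out of 137. At percentile 90 or above there was 1 region of each kind, out of 1793 for wild-type and 1289 for knockout.

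**Figure D2:**
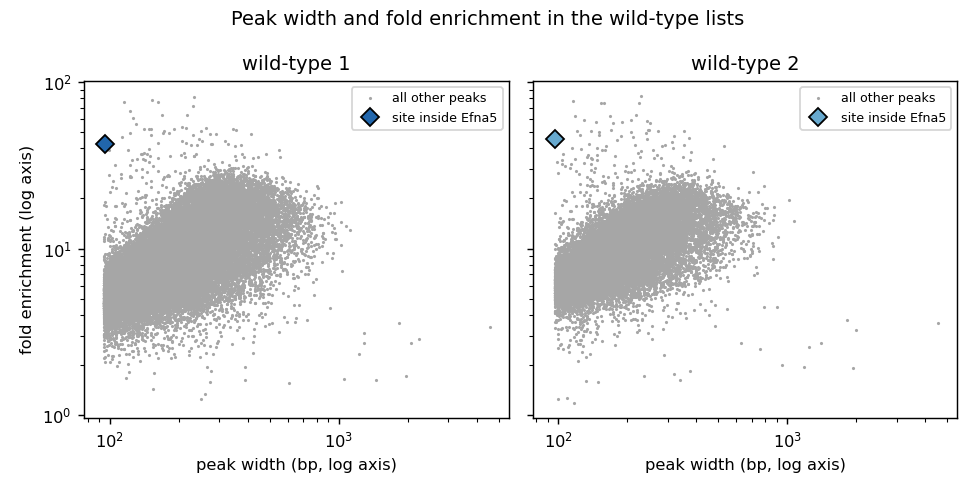
Width (horizontal, bp, log axis) and fold enrichment (vertical, log axis) of every peak in wild-type replicates 1 and 2; grey points are single peaks and the diamond is the site inside Efna5. The diamond sits at 95 and 97 bp with folds of 42.4 and 45.7, at the left edge of each cloud and above the other peaks of that width.

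The 3 wild-type-only regions closest to it in percentile were wider and weaker. They lay 0.029 kb from the end of Gstt2, a glutathione transferase (458 bp, folds 17.2 and 14.6 in the wild-type libraries), inside Arhgap26 (295 bp, folds 22.5 and 16.4), and 48.3 kb from Sgk1, a kinase (373 bp, folds 18.3 and 14.8). Sites as narrow and strong were few in any library. With limits set after the values were seen, at most 110 bp wide and at least 25-fold in 1 or more lists, there were 11 such regions in the series, of which 6 had a peak in all 4 lists, 3 in 3 lists, 1 in 1 list and 1, the Efna5 site, in 2 lists. Knockout replicates 1 and 2 lacked a peak at 3 and 2 of these 11, and wild-type replicates 1 and 2 at 0 and 3. Such peaks thus also differed between libraries of 1 genotype.

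Around the site the lists were sparse in both genotypes. The nearest other peaks lay 5488 kb to the left and 763.0 kb to the right in knockout replicate 1, and 69.1 and 42.4 kb away in knockout replicate 2. In wild-type replicate 1 they lay 46.2 and 145.5 kb away, and in wild-type replicate 2 5488 and 145.5 kb away. Knockout replicate 1 and wild-type replicate 2 thus had no other peak inside Efna5, knockout replicate 2 had 2 and wild-type replicate 1 had 3. Knockout replicate 2 had peaks on both sides of the site within the gene span, at folds of 5.43 and 4.49, where the site itself had none. Neither differential list holds the site. In the authors' deposited table of regions enriched in wild-type cells, the only region on chromosome 17 lay 47908.5 kb from Efna5. The authors' deposited table of regions enriched in knockout cells had 32 regions on chromosome 17, the nearest 1122 kb from the gene.

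**Figure D3:**
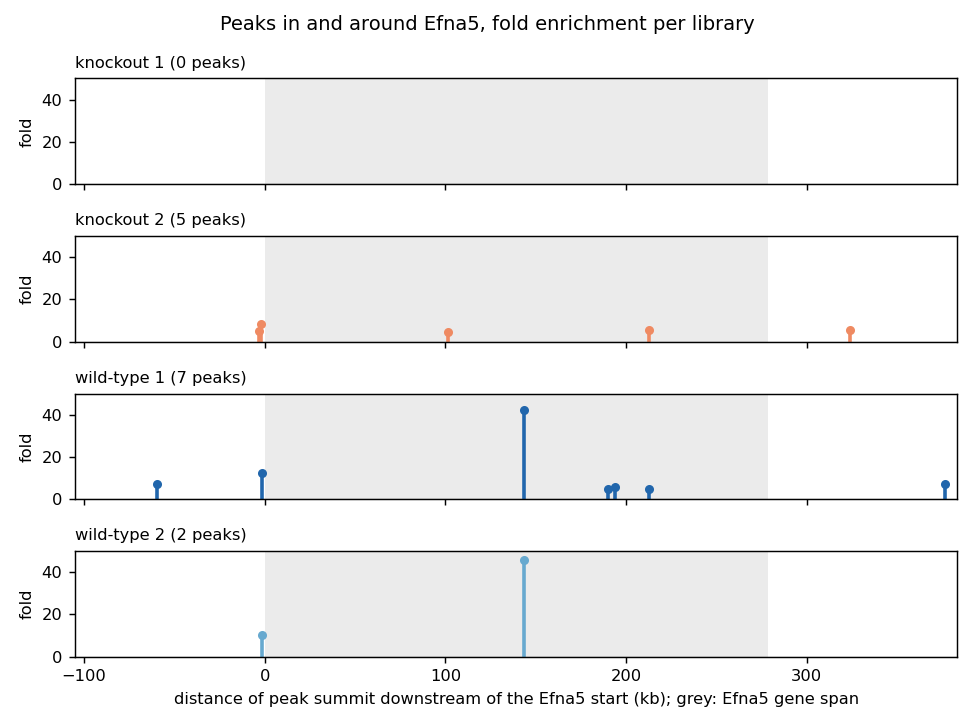
Peaks within 100 kb of Efna5 in each library, placed by the distance of the summit downstream of the Efna5 start (horizontal, kb), with fold enrichment as height (vertical); the grey band is the gene span of 278.4 kb. The tall peaks at 143.7 kb, with folds of 42.4 and 45.7, are present in the wild-type panels and absent from the knockout panels, while the peak just left of the start is present in 3 of 4 panels.

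Across the windows of all 7 genes, 179 peaks fell into 70 merged regions. The windows held 29 and 48 peaks in the knockout libraries and 61 and 41 peaks in the wild-type libraries. Per 1000 peaks of each list that was 2.09 and 1.98 in the knockout libraries and 1.81 and 2.21 in the wild-type libraries, and the genotypes overlapped. The difference of the means was 0.0209, and with equal lists it turned to -0.360. Of the 70 regions 28 were present in all 4 libraries, a larger share than the 28% of all merged regions, and 15 of these lay in the Efna2 window. With 50 kb windows it was 15 of 43, and with 10 kb windows 3 of 19, a smaller share than that 28%. Of the 70 regions a further 25 were in 1 list alone, where all merged regions gave 40.9%. Of these 25, 0 and 6 belonged to the knockout libraries and 16 and 3 to the wild-type libraries. Regions in both wild-type lists only numbered 3 of 70, where all merged regions gave 6.52%, and regions in both knockout lists only numbered 0, where they gave 0.953%. With a library left out, such regions were defined by the remaining lists alone, so a genotype could be represented by 1 list. The wild-type-only number was then 10 without knockout replicate 2, 6 without wild-type replicate 1 and 19 without wild-type replicate 2. The knockout-only number became 6 without knockout replicate 1 and 1 without wild-type replicate 1. Shares of all merged regions with a library left out are not given. At the limit of the windows, the outermost region inside lay 99.9 to 100.0 kb from Efna3 with folds of 5.34 and 5.06 in the knockout libraries and 7.60 and 9.07 in the wild-type libraries. The first region outside lay 102.4 kb from Efna2 with folds of 7.04 and 9.29 in the knockout libraries and 12.5 and 10.3 in the wild-type libraries.

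Most of these regions lay by other genes, as 49 of the 70 regions lay nearer to an end of another protein-coding gene than to an end of a ligand gene. The 3 ligand genes Efna1 (chr3:89271730-89280951), Efna3 (chr3:89313899-89322939) and Efna4 (chr3:89333393-89338028) are neighbours, and 23 of the 28 regions around them were counted in the windows of more than 1. Within that cluster the ends of Scamp3, Mtx1, Thbs3, Trim46, Zbtb7b, Flad1, Shc1 and Pygo2 carried regions open in all 4 libraries, and only 1 region open in all 4 lay nearest to an ephrin gene. It lay 5603 bp from Efna3, between Efna1 and Efna3, with folds of 6.27 and 6.54 in the knockout libraries and 9.11 and 9.18 in the wild-type libraries. Efnb1 (chrX:99136061-99149022) had 2 regions in its window and Efnb2 (chr8:8617235-8661242) had 5.

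**Figure D4:**
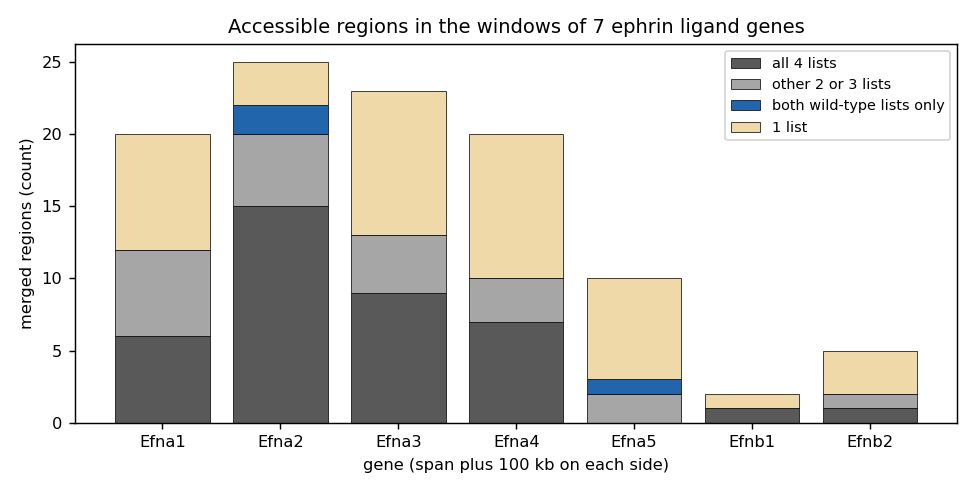
Number of merged regions (vertical) with a summit inside each ligand gene or within 100 kb of it, split by the lists that hold them; neighbouring genes share regions. Efna2 has 25 regions with 15 in all 4 lists, and Efna5 has 10 regions with 0 in all 4 lists.

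Efna2 (chr10:80179482-80190010) had the most open window, with 25 regions of which 15 were present in all 4 libraries. The strongest lay at ends of other genes. At Stk11, a tumour suppressor kinase, the fold was 14.1 and 17.3 in the knockout libraries and 19.9 and 20.05 in the wild-type libraries. At Pwwp3a it was 13.0 and 17.2 in the knockout libraries and 21.1 and 19.4 in the wild-type libraries. A region at the ends of Gamt and Dazap1 had folds of 14.5 and 13.9 in the knockout libraries and 13.8 and 16.2 in the wild-type libraries. It was the only region in the windows that overlapped either deposited differential list, as a region of the authors' deposited table of regions enriched in wild-type cells lay there at chr10:80261092-80261491, 71.1 kb from Efna2. That table overlapped 0.493% and the authors' deposited table of regions enriched in knockout cells overlapped 0.491% of all merged regions. Chromosome 10 held 41 regions enriched in wild-type cells and 3 enriched in knockout cells. The 2 wild-type-only regions of this window lay near Sbno2. Their folds were 5.61 and 6.56 at the one inside that gene and 7.31 and 6.95 at the one outside it, in wild-type replicates 1 and 2. With equal lists, 3 regions of the 7 windows were wild-type-only and 0 were knockout-only, where all merged regions then gave 6.2% and 5.23%. The Efna5 site and the Sbno2 region outside the gene were among these 3. The other 1 lay near Stk11, where the full list of knockout replicate 2 had a peak (fold 3.88).

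Of the 28 regions open in all 4 libraries, 26 had a lower mean percentile in the knockout than in the wild-type libraries, where all such regions of the series gave 73.8%. No test was made of this. Their median percentile was 54.7 and 79.9 in the knockout libraries and 86.7 and 78.4 in the wild-type libraries. Knockout replicate 1 stood lowest, and knockout replicate 2 lay between the wild-type libraries. The mean of the knockout medians was below that of the wild-type medians by 15.2 points (difference -15.2), where all 10977 regions open in all 4 libraries gave -8.15. At 12 of the 28 regions both knockout percentiles lay below both wild-type percentiles, where all such regions gave 25.5%, and at 0 of the 28 they lay above, where all such regions gave 7.07%. With equal lists the difference of medians was -5.74 for 26 regions, against -0.481 for all 8935 regions. Then 21 of the 26 had a lower mean percentile in knockout, where all such regions gave 53.9%. Both knockout percentiles lay below both wild-type percentiles at 8 of the 26, against 2238 of the 8935, and above them at 2 of the 26, against 1888 of the 8935. As deposited, it was -3.56 without knockout replicate 1 and -27.8 without knockout replicate 2. In the Efna2 window all 15 such regions had a lower mean percentile in knockout, and over the whole of chromosome 10 the share was 83.6%. The chromosome 3 cluster had 9 of 11 lower, against 71.8% of chromosome 3. With equal lists the difference of medians was 0.656 points for the chromosome 3 cluster and -7.37 for the Efna2 window, against 2.88 and -4.88 for all such regions of those chromosomes. At that length 7 of 9 regions of the chromosome 3 cluster were still lower in knockout, with a median difference per region of -3.77, where all of chromosome 3 gave 45.6% lower and a median of 1.24. In the Efna2 window 13 of 15 were lower, where all of chromosome 10 gave 72.2%. Both knockout percentiles lay below both wild-type percentiles at 8 of these 15, against 196 of 467 on chromosome 10. They lay above at 0, against 51 of 467. In the chromosome 3 cluster they lay below at 0 of the 9, against 58 of 355 on that chromosome, and above at 2, against 95 of 355.

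**Figure D5:**
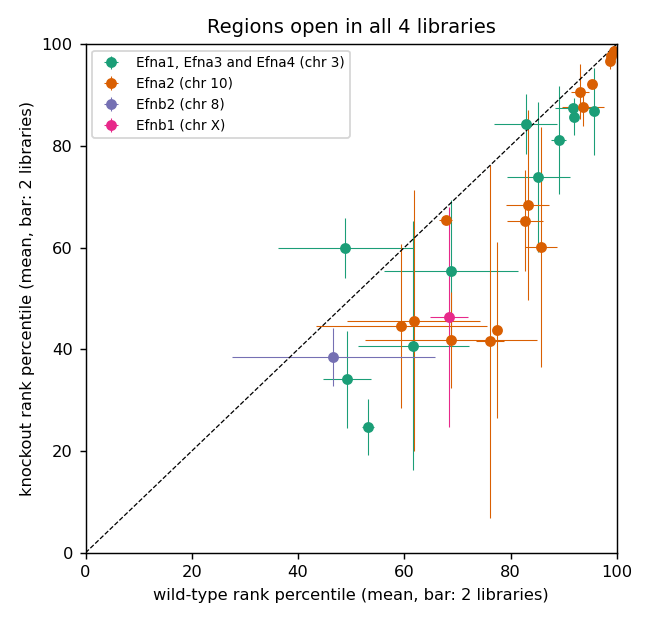
Mean rank percentile in the knockout libraries (vertical) against that in the wild-type libraries (horizontal) for the 28 regions open in all 4 libraries, coloured by window; bars join the 2 libraries of a genotype and the dashed line marks equal percentiles. Of the 28 points 26 lie below the line, and the vertical bars reach down to 6.92 at the lowest.

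The 14 Eph receptor genes, which encode the ligands' partners, gave windows with 73 merged regions. These windows held 33 and 49 peaks in the knockout libraries and 63 and 41 peaks in the wild-type libraries. Per 1000 peaks the mean was 2.198 ± 0.255 in knockout and 2.04 ± 0.245 in wild-type libraries (SD, n = 2 each), a difference of 0.156 that was smaller than the spread between replicates (two-sided exact permutation test, p = 0.667, where the smallest p possible is 0.333). With equal lists the difference was 0.180 and the same exact permutation test gave p = 0.333, as both knockout values then lay above both wild-type values. As deposited, the difference was -0.0245 without knockout replicate 1 and -0.0173 without wild-type replicate 1. A start peak in at least 1 library was found for 7 of 14 receptors and in all 4 for 3, Ephb3, Epha7 and Epha4. All genes gave 45.9% and 28.8% for these, so the receptor counts were near the background.

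Ephb3, a receptor for B-type ligands, had the strongest start peak among ligands and receptors, with folds of 12.8 and 18.0 in the knockout libraries and 22.2 and 21.8 in the wild-type libraries. The percentiles, 93.4 and 98.6 in knockout and 98.8 and 98.4 in wild-type libraries, overlapped. Epha7, a receptor for A-type ligands, had folds of 11.99 and 10.4 in the knockout libraries and 15.3 and 11.2 in the wild-type libraries. Ephb4, the main receptor of ephrin-B2, had its start peak in knockout replicate 2 (fold 10.4) and in both wild-type libraries (folds 11.9 and 12.8). These were the same 3 lists as for Efnb2, a pattern of 6.31% of all genes. Epha1 and Epha2 had theirs in wild-type replicate 1 alone, and Epha3, Epha5, Epha6, Epha8, Epha10, Ephb1 and Ephb2 had none.

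Epha4, a receptor that binds ligands of both types, ranked higher in the knockout lists. Its start peak had folds of 7.14 and 9.24 in the knockout libraries, against 6.10 and 5.85 in the wild-type libraries. The percentiles were 38.6 and 67.7 in the knockout libraries and 19.9 and 4.70 in the wild-type libraries, and did not overlap. Among all genes with a start peak in the 4 libraries, both knockout percentiles lay above both wild-type percentiles for 1.31% and below them for 27.4%. A second region, 20.97 kb from Epha4, was present in both knockout lists (folds 5.10 and 6.06) and in neither wild-type list. With 2 libraries against 2 the smallest p for any single region is 0.333, so none was tested. Ephb6, a receptor without kinase activity, had a start peak in both wild-type lists and in no knockout list, though at 2 different regions, a pattern of 1.78% of all genes. The reverse pattern, found for 0.0343% of all genes, occurred at no receptor or ligand. Of 73 regions in the receptor windows, 4 were wild-type-only and 2 knockout-only, where all merged regions gave 6.52% and 0.953%.

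Of 29 genes listed as effectors and adaptors of Eph signalling, 26 had a start in the table. A start peak in all 4 libraries was found for 11 of these, among them, named after their values were seen, Adam10, a protease that cuts ephrins at cell contacts, the kinase genes Abl1, Abl2 and Fyn, and Rasa1, which switches Ras off. None had a start peak in both libraries of 1 genotype and in neither of the other, and 9 had none in any library. All genes gave 28.8% with a start peak in all 4 libraries, 45.9% with one in any library, and 1.78% and 0.0343% with one in both wild-type or both knockout libraries alone.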

How the data were processed

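Per the labels' protocols, Omni-ATAC libraries were made from 10T1/2 cells and sequenced as paired ends. Per the submitters' processing notes the build was mm10 and they list Bowtie2, DESeq2, DiffBind 2.2.12, MACS2, cutadapt and deepTools without saying what each did. The authors deposited 1 peak list per library, with a score, a fold (ratio over local background), and −log10 p and −log10 q values for each summit, and 2 lists of differential regions as positions without fold or p-value. The labels do not state their thresholds. These values rank or describe peaks within a list and were not tested between lists. The score was not used.

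Peaks that overlapped by at least 1 bp were joined into merged regions with Python 3.11.15 and pandas 2.3.3. A peak belonged to a gene when its summit lay inside the RefSeq span (GRCm38.p6) or within 100 kb of it. Start peaks used a promoter table with strand, which covers 17492 protein-coding genes. Merging was tested on artificial peaks of known pattern. Members, gene lists and the naming rule (ligands, Eph receptors, effectors open in 1 genotype only, genes at named regions, nearest patterns) were chosen with earlier results of these data known. Tests are reported for the receptor windows alone, as a two-sided exact permutation test over libraries and an exact sign-flip test of paired libraries. For the ligand windows values are given without a p. Alternatives were equal list lengths, windows of 50 and 10 kb, a −log10 q of at least 5, a stricter merge, ranks by fold, any overlap with a window, starts within 5 kb, each library left out and libraries paired by number. The sequence of the site inside Efna5 is not analysed here.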

Additional observations from a re-analysis of the deposited data

How the results depend on the processing

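With equal list lengths the Efna5 site stayed in both wild-type lists and neither knockout list. Its mean percentile was 99.3 there and 99.9 by fold enrichment, and 99.5 to 99.7 with 1 library left out. The number of regions in the 7 windows was 39 with equal lists, 43 with 50 kb windows and 19 with 10 kb windows, and 54 to 70 with 1 library left out. Wild-type-only regions numbered 1 with 50 kb and 1 with 10 kb windows, and 3 to 19 with 1 library left out, with 10 without knockout replicate 2, 6 without wild-type replicate 1 and 19 without wild-type replicate 2. Knockout-only regions numbered 0 to 6 with 1 library left out, with 6 without knockout replicate 1 and 1 without wild-type replicate 1. With a library left out, both kinds were defined by the remaining lists alone. Regions open in all libraries numbered 15 with 50 kb and 3 with 10 kb windows, and 28 to 35 with 1 library left out. Ligand genes with a start peak numbered 2 with equal lists, where Efnb2 had none, and 7 when starts within 5 kb counted. The shares of all genes at these settings are not given, so neither count can be set against a background. The difference in peaks per 1000, knockout minus wild-type, was 0.0209 for the ligand windows, -0.360 with equal lists, and -0.182 to 0.224 with 1 library left out. That of the receptor windows was 0.156, 0.180 with equal lists, and -0.0245 to 0.336 with 1 library left out. The rank difference of regions open in all 4 libraries was -28.7 with 50 kb windows and -27.8 to -3.56 with 1 library left out. The cause of these shifts was not tested, beyond that smaller windows and shorter lists hold fewer regions.

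With the replicate block the differences were unchanged, at 0.0209 and -15.2 for the ligand windows, given without a test, and at 0.156 for the receptor windows, where the exact sign-flip permutation p was 1 and the smallest possible is 0.5, since pairing equal groups leaves the mean difference as it is. Numbers were taken from the sample titles, and by the library names in the labels only replicate 2 of each genotype shares a number. Differences between replicates 1 and 2 had a correlation between genotypes of -0.162 over 10977 regions, and of 0.0326 over 8935 with equal lists. Replicate 1 had the shorter list in knockout and the longer list in wild-type. With 1 such difference per genotype the correlation cannot show whether libraries of the same title number share more than the number. Pairing libraries crosswise, chosen after seeing the data, gave 0.0209, -15.2 and 0.156 again. Unknown depth limits every absence reported here.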
